A study of Mus musculus with 12 samples.

Results

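Cytosolic ribosomal protein genes are those whose products, with ribosomal RNA, make up the ribosome of the cytoplasm. They were taken by symbol: Rpl or Rps with a number and at most 1 letter a, l or x, or Rplp0, Rplp1 and Rplp2, with pseudogene rows left out. The rule found 80 of the 24692 rows of the expression table, of which 46 encode proteins of the large subunit, 31 proteins of the small subunit and 3 the stalk of the large subunit. Values are FPKM, which divide a gene's fragments by transcript length and by library size. The samples were 4 sorted cell populations from the back skin of male Sox2:GFP/aSMA:dsRed mice of postnatal day 26 to 27, in early anagen, the start of hair growth. Hair follicle dermal stem cells (libraries numbered 1, 2 and 4), dermal papilla (1, 2 and 4), dermal sheath (1, 4 and 5) and interfollicular dermis (1, 2 and 6) had 3 libraries each. Every group came from this double reporter line, in which Sox2 sequence drives GFP and the smooth muscle actin promoter drives dsRed, and there was no group without the reporters or without sorting. The study asked how follicle mesenchymal cells differ in expression as hair regeneration begins.

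A ribosome holds a single copy of most of these proteins, so cells that make ribosomes need them in like amounts. Their messenger RNAs begin with a terminal oligopyrimidine tract, and growth signals through mTOR set how many of them are translated. Mammalian genomes also carry many processed pseudogenes of ribosomal protein genes, which are intronless copies that match the coding sequence closely, and a few working paralogs that are used mainly in certain tissues.

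Read counts are not known here. A relative depth read from the lowest values ran from 0.633 in papilla library 4 to 1.93 in interfollicular library 6, with stem cell library 2 as 1. It is a rough estimate: outside stem cell library 2, the commonest ratio on which it rests held for 26.5% to 35.6% of the low rows used. The labels and the defining markers did not always match. The summed FPKM of 8 dermal mesenchyme genes was 9364 to 11842 in stem cells and 13207 to 23830 in papilla, but 966 to 1919 in sheath and 822 to 1551 in interfollicular dermis. Acta2, the smooth muscle actin behind the red reporter, was at 850 to 901 FPKM in stem cells, 20.5 to 86.4 in papilla, 35.8 to 76.0 in sheath and 5.72 to 10.4 in interfollicular dermis. The 8 keratinocyte markers did not move together. Against stem cells 5 were higher and 2 lower in sheath, 5 higher and 1 lower in interfollicular dermis, and 1 higher in papilla, and their summed FPKM was highest in papilla. Populations are named below as labelled. In sorted bulk samples, fewer cells of a type and less RNA per cell cannot be told apart.

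The ribosomal protein genes did not have like FPKM values. Mean FPKM over the 12 libraries was 0.0151 for Rpl10l and 576 for Rpl8, and the median of the 80 means was 4.32. Of the 80, 26 had a mean under 1 FPKM, 28 lay from 1 to 10, 21 from 10 to 100 and 5 above 100. Among the last were Rpl8, Rpl4 (196), Rps3 (184) and Rps26 (121). Between the 10th and 90th percentile the means spanned 314-fold, from 0.210 to 66.1 FPKM. The 77 mitochondrial ribosomal protein genes, whose products form the ribosome inside mitochondria, spanned 15.2-fold, from 2.12 to 32.2 FPKM, with a median of 11.0. Rpl8, which lies near the peptidyl transferase centre, had 430, 504 and 410 FPKM in stem cells, 382, 404 and 254 in papilla, 605, 648 and 949 in sheath and 747, 1001 and 573 in interfollicular dermis. Core proteins of the same ribosome were near the bottom: Rpl23a, which lies at the exit of the nascent chain, had a mean of 0.150 FPKM and Rps23, of the decoding site, 0.125. The order was similar from library to library, with rank correlations of the 80 values between 2 libraries from 0.804 to 0.965, over values that share gene models and processing.

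**Figure D1:**
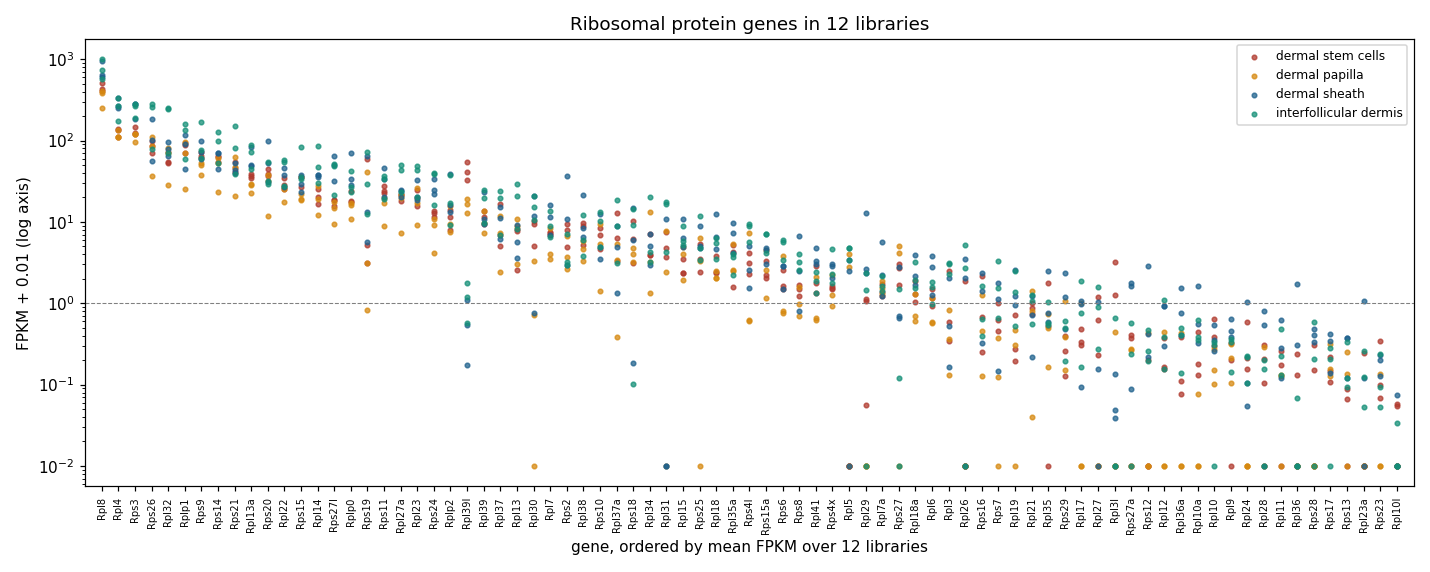
FPKM plus 0.01 (log axis) of the ribosomal protein genes reported here, ordered by mean, with 1 point for each of the 12 libraries coloured by population; the dashed line is at 1 FPKM. Means fall from 576 for Rpl8 to 0.0151 for Rpl10l, and Rpl39l is the gene whose populations lie farthest apart; points at the bottom edge are values listed at 0.

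Low values went with the number of close genomic copies. The coding sequence of each gene (GENCODE vM21, GRCm38) was compared with every GENCODE transcript of another locus, and a near-copy was a gene with a stretch of at least 50 bases at 98% identity or more. Of the 79 genes matched (Rps4l was not), 65 had at least 1 near-copy and their mean FPKM had a median of 2.13. The other 14 had none and a median of 52.5. Of these 14, 12 had a mean of 10 FPKM or more, among them Rpl4, Rps3, Rpl32, Rps9, Rps14, Rps21, Rpl13a, Rpl22, Rps15, Rps27l and Rpl39l. The other two were Rpl3l and Rpl10l, paralogs known for use in striated muscle and in testis. All 24 of the other matched genes under 1 FPKM had a near-copy. But of the 65 genes with a near-copy, 14 also had a mean of 10 FPKM or more, among them Rpl8, Rps26 and Rplp1 (87.5). Near-copies covered 14.5% of the coding sequence of Rpl8 and 100% of those of Rps26 and Rplp1. Rpl21, with 17 near-copies, had a mean of 0.819 FPKM. Across the 79 genes the rank correlation of mean FPKM with the number of near-copies was -0.53 at 98% identity, -0.43 at 95% and -0.38 at 90%, against -0.03 with coding length. These genes share the libraries, and the identity thresholds were chosen after the values were seen. At 95% identity the near-copies numbered 654 in sum over the genes, 612 of them annotated as pseudogenes, and 26 had a row of their own in the table. Of the mitochondrial ribosomal protein genes, 69 of 77 had no near-copy at 98%, with a median of 13.8 FPKM. The 8 with one had a median of 0.939. For these 77 the rank correlation was -0.47 at 98%, -0.65 at 95% and -0.70 at 90%, an order opposite to that of the cytosolic genes. How reads with several matching places were counted is not given in the sources used here, and its part in the low values was not tested. For the 65 genes with near-copies, levels are therefore uncertain, and reads of a copy cannot be told from reads of the gene.

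**Figure D2:**
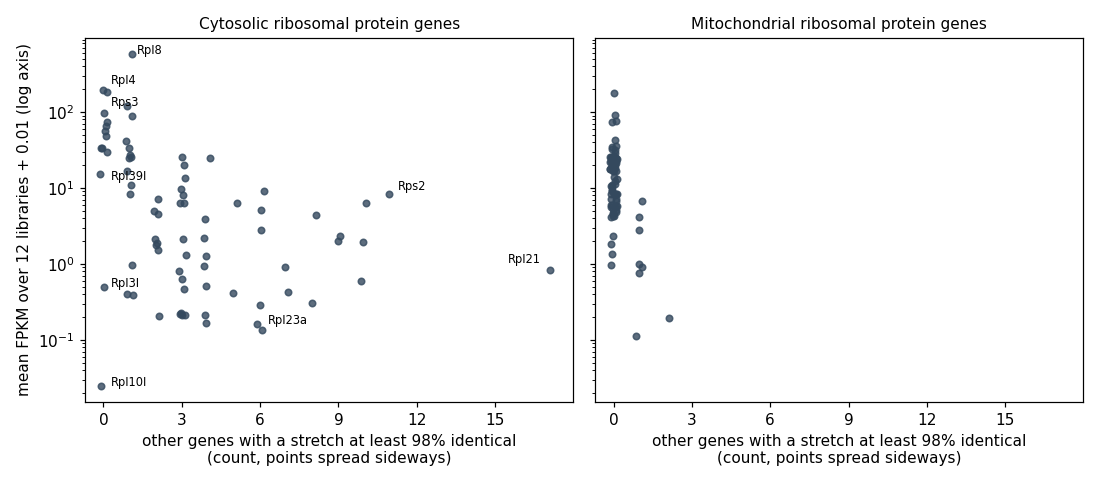
Mean FPKM plus 0.01 (log axis) against the number of other genes holding a stretch at least 98% identical, for the cytosolic (left) and mitochondrial (right) ribosomal protein genes reported here, 1 point a gene. Cytosolic genes at 0 copies include Rpl4 and Rps3, and Rpl21 lies far right with 17 copies.

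Zeros were listed for some of these genes, in each library for a smaller share of members than of all rows. No member was at 0 in all 12 libraries, 50 were above 0 in all and 30 were at 0 in at least 1. Papilla libraries listed 15, 14 and 21 of the 80 at 0, stem cells 3, 6 and 9, sheath 3, 6 and 1, and interfollicular dermis 5, 3 and 6. Papilla thus had the most zeros, with a mean of 20.8% of members at 0, beside 39.3% of all rows. The means were 7.5% beside 33.1% in stem cells, 4.17% beside 35.2% in sheath and 5.83% beside 33.9% in interfollicular dermis. Papilla library 4 also had the highest share among all rows, 41.9%. Among rows that reached 1 FPKM the order was the other way: 29.6% of members and 21.1% of all rows had a 0. Of the 40 members that reached 10 FPKM somewhere, 4 were at 0 elsewhere, beside 5.61% of all rows that reached 10 FPKM. Rpl31, of the large subunit, was at 4.77, 7.57 and 3.69 FPKM in stem cells, 7.73, 2.42 and 0 in papilla, 0, 0 and 10.8 in sheath and 16.6, 17.3 and 4.21 in interfollicular dermis. Rps25, of the small subunit, was at 0 only in papilla library 4 and at 2.40 to 11.8 FPKM elsewhere. These zeros fell in papilla library 4 for both genes and in sheath libraries 1 and 4 for Rpl31. Rpl30, of the large subunit, was at 9.31, 10.2 and 5.09 in stem cells, 3.28, 0.698 and 0 in papilla, 11.8, 0.757 and 21.1 in sheath and 20.6, 15.05 and 10.6 in interfollicular dermis. Rpl29 was listed at 0 in all papilla libraries, at 0.0463, 1.11 and 1.05 in stem cells, at 2.36, 2.66 and 12.8 in sheath and at 2.34, 1.46 and 0 in interfollicular dermis. The values of these genes within a population differ more than those of the abundant members, and a 0 here can be a failed estimate.

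Together the 80 genes held a larger share of the summed FPKM in sheath and interfollicular dermis. The share was 0.843%, 1.02% and 0.945% in stem cells (mean 0.938% ± 0.0909, SD, n = 3) and 0.855%, 0.912% and 0.597% in papilla (0.788% ± 0.168). It was 1.496%, 1.501% and 2.08% in sheath (1.69% ± 0.337) and 2.01%, 2.27% and 1.37% in interfollicular dermis (1.88% ± 0.463). Every sheath and interfollicular library lay above every stem cell and papilla library. Within a population the libraries differed: interfollicular library 6 lay below every sheath library, sheath library 5 was the highest of its group and papilla library 4 the lowest of all. The mitochondrial ribosomal protein genes went the same way, from 0.332% to 0.517% in stem cells and papilla and from 0.644% to 1.11% in sheath and interfollicular dermis. A few abundant genes carry the sum of the 80: the 3 members with the highest mean over the 12 libraries held 50.8% to 62.8% of it, by library.

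**Figure D3:**
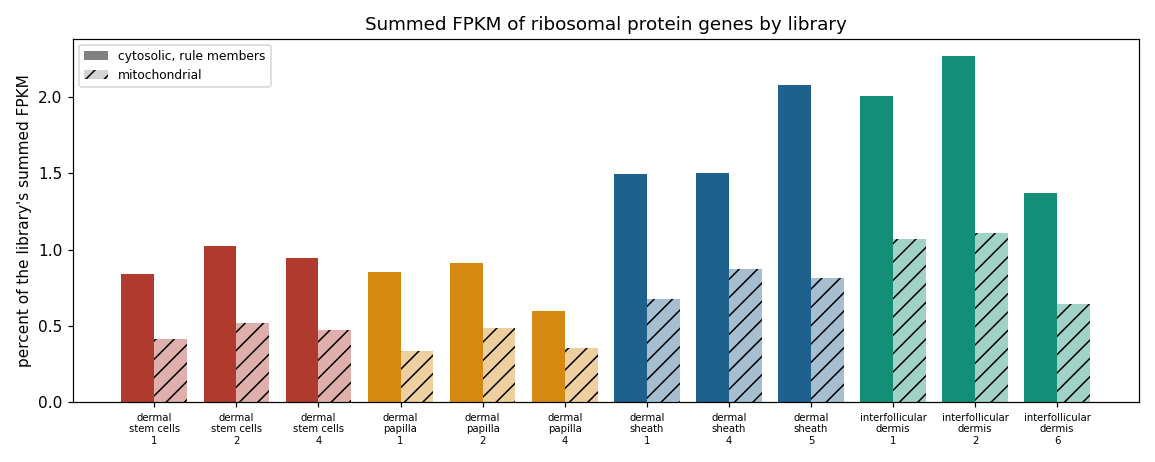
Percent of each library's summed FPKM held by the 80 cytosolic (solid bars) and 77 mitochondrial (hatched bars) ribosomal protein genes, by population and library number. Cytosolic bars lie between 0.597 and 1.02 in stem cells and papilla and between 1.37 and 2.27 in sheath and interfollicular dermis.

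The gene whose populations lay farthest apart was Rpl39l, a paralog of Rpl39 known for use in testis. Rpl39, on chromosome X, encodes a short protein of the large subunit that lines the tunnel through which new protein leaves. Rpl39l lies on chromosome 16 (chr16:10170226-10174911, plus strand, GRCm38) and Rpl39 at chrX:37082520-37085402 on the minus strand, each with 3 exons in the transcript used. The 2 coding sequences, from GENCODE vM21, are shown because the text contrasts these genes. They have 153 bases each, differ at 23 and are 85.0% identical, with capitals at the bases that differ.
Rpl39: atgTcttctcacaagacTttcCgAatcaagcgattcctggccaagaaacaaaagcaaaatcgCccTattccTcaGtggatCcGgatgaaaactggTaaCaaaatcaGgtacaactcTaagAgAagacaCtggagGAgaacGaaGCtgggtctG
Rpl39l: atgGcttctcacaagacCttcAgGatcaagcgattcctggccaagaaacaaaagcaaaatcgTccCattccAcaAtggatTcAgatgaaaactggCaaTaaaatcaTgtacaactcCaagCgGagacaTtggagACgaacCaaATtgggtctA
The longest stretch without a difference is 38 bases, and Rpl39l has no near-copy at 90% identity or more. Rpl39 has 3 near-copies at 98%.

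Rpl39l was at 41.0, 32.9 and 54.0 FPKM in stem cells (42.7 ± 10.7, SD, n = 3), 16.6, 12.8 and 18.9 in papilla (16.1 ± 3.09), 1.10, 0.162 and 0.529 in sheath (0.597 ± 0.472) and 1.75, 1.17 and 0.567 in interfollicular dermis (1.16 ± 0.590). No stem cell library overlapped a papilla library, and neither overlapped sheath or interfollicular dermis. On the log2(FPKM + 1) scale, where low genes' changes are understated, Rpl39l was lower than in stem cells by a log2 fold change of -1.34 (SE 0.31, adjusted p = 0.0178, limma) in papilla. It was lower by -4.79 (SE 0.31, adjusted p = 5.3e-07) in sheath and by -4.35 (SE 0.31, adjusted p = 9.03e-07) in interfollicular dermis. The papilla call is lost with a pseudocount of 0.1 (adjusted p = 0.132), with quantile normalization (0.0551), and without stem cell library 1 (0.0642), stem cell library 4 (0.0749) or papilla library 2 (0.0572). Rpl39 was at 9.32 to 13.5 FPKM in stem cells, 7.23 to 13.7 in papilla, 9.43 to 23.4 in sheath and 9.69 to 25.0 in interfollicular dermis, all 4 ranges overlapping. None of its 6 comparisons passed, with adjusted p-values from 0.147 to 0.824. By listed FPKM, Rpl39l was above Rpl39 in stem cells and below it in sheath and interfollicular dermis. Rpl39 has near-copies, so its level is uncertain, and with it the order of the pair.

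A second pair, Rps27 and Rps27l, went the other way. Both encode a zinc finger protein of the small subunit, and Rps27l is known as a target of p53. Their coding sequences of 252 bases differ at 60 and are 76.2% identical. Rps27l was at 18.7, 18.7 and 15.6 FPKM in stem cells, 9.34, 17.8 and 14.96 in papilla, 32.3, 49.6 and 64.0 in sheath and 50.8, 48.3 and 21.7 in interfollicular dermis. Every sheath and interfollicular library was above every stem cell and papilla library. The log2 fold change against stem cells was 1.36 (SE 0.35, adjusted p = 0.00706) in sheath and 1.06 (SE 0.35, adjusted p = 0.0298) in interfollicular dermis. The second call is lost without any 1 of the stem cell libraries (adjusted p = 0.0634, 0.0583 and 0.0817), without interfollicular library 1 (0.116) or 2 (0.108), and with median-of-ratios scaling (0.0508) or no filter (0.0651). Rps27 was at 3.03, 1.69 and 2.68 FPKM in stem cells, 5.02, 4.11 and 0 in papilla, 2.76, 0.680 and 0.648 in sheath and 0.111, 1.47 and 0 in interfollicular dermis, and none of its comparisons passed. Rps27 has 2 near-copies at 98% and Rps27l has none.

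**Figure D4:**
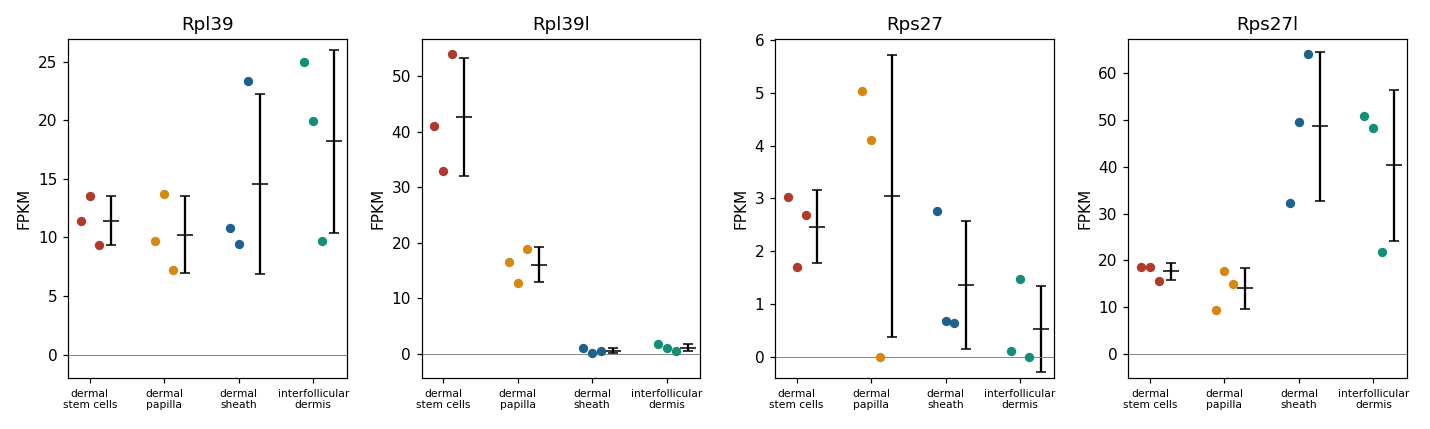
FPKM of Rpl39, Rpl39l, Rps27 and Rps27l in each library by population (points), with the mean and SD of 3 libraries (black dash and bar). Rpl39l is at 32.9 to 54.0 in stem cells and under 2 in sheath and interfollicular dermis, whereas Rps27l is at 21.7 to 64.0 in sheath and interfollicular dermis and at 9.34 to 18.7 in the others.

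A single fit covered the 12774 rows that reached 1 FPKM in 3 or more libraries, 62 of them members. The other 18, all with a 0 in at least 1 library, were not tested. A call is an adjusted p under 0.05. Among the 4 populations 20 of the 62 differed by the F test, beside 56.8% of all rows tested. Without stem cell library 2, interfollicular library 1 or interfollicular library 2 it was 13. The 6 pairwise comparisons share libraries with each other. Differences are given beside the median over all rows, since scaling by median-of-ratios shifts that median by 0.35 (papilla minus sheath), 0.29 (papilla minus interfollicular dermis) and -0.17 (sheath minus stem cells).

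Sheath was compared with stem cells to ask how the sheath differs from the stem cells of the same follicle. Of the 62 members, 8 were higher in sheath, beside 24.3% of all rows, and 1 (Rpl39l) was lower, beside 19.6%. The members' median log2 fold change was 0.41, and that of all rows 0.13. Rpl4, of the large subunit, was at 109, 135 and 140 FPKM in stem cells and 249, 265 and 331 in sheath. Its log2 fold change was 1.13 (SE 0.26, adjusted p = 0.00412), and the libraries did not overlap. Rps3, which sits where the messenger RNA enters the small subunit, was at 121, 145 and 123 in stem cells and 183, 278 and 283 in sheath, with 0.91 (SE 0.25, adjusted p = 0.00999). Rplp0, the base of the stalk that recruits elongation factors, was at 23.8, 17.5 and 18.3 in stem cells and 34.0, 28.7 and 70.1 in sheath, with 1.02 (SE 0.33, adjusted p = 0.0244). Rpl18 (1.14), Rpl15 (1.12), Rps24 and Rpl29 were also higher. The Rps24 call (adjusted p = 0.0431) is lost without any 1 stem cell or sheath library, at 0.0528 to 0.144. Without sheath library 5 the adjusted p was 0.113 for Rplp0, 0.0694 for Rpl18 and 0.099 for Rpl29. The Rplp0 call is also lost without stem cell library 2 (0.0742) or 4 (0.0634), that of Rpl29 without stem cell library 1 (0.0947), and that of Rpl15 without stem cell library 1 (0.0614), stem cell library 2 (0.0583) or sheath library 4 (0.0823). With no filter the calls of Rps24 (0.0908), Rplp0 (0.0531) and Rpl29 (0.06) are lost. Median-of-ratios scaling ends those of Rps24 (0.098), Rplp0 (0.056) and Rpl15 (0.05003). A pseudocount of 0.1 ends those of Rpl29 (0.0725) and Rps24 (0.0527). Rps24 is also lost with quantile normalization (0.0528) or no variance trend (0.0512). The other stalk genes did not pass: Rplp1 had a log2 fold change of -0.12 (SE 0.50) and Rplp2 of 0.85 (SE 0.48).

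Against stem cells, interfollicular dermis had 11 members higher, beside 19.7% of all rows, and again 1, Rpl39l, lower, beside 17.9%. The median log2 fold change was 0.57, against 0.14 over all rows. Rpl4 was at 335, 266 and 172 FPKM in interfollicular dermis (log2 fold change 0.96, SE 0.26, adjusted p = 0.0123) and Rps3 at 285, 263 and 190 (0.90, SE 0.25, adjusted p = 0.0121). Rps24, of the small subunit, was at 12.9, 13.7 and 11.5 in stem cells and 38.9, 39.997 and 16.3 in interfollicular dermis, with 1.16 (SE 0.37, adjusted p = 0.0262). The lowest of these is interfollicular library 6, which had the highest estimate of relative depth of the 12. The call is lost without any 1 stem cell library, interfollicular library 1 or interfollicular library 2 (0.0506 to 0.103), and that of Rpl4 without stem cell library 1 (0.0567) or interfollicular library 1 (0.0562). The large subunit genes Rpl13 (1.47), Rpl32 (1.45), Rpl14 (1.23) and Rpl15 were higher as well, and the libraries of Rpl13 and Rpl32 overlapped between the groups. Rpl32 was at 54.9, 73.2 and 53.5 in stem cells and 255, 247 and 70.9 in interfollicular dermis. Rpl5, which with Rpl11 binds the p53 regulator Mdm2, was listed at 0 in all stem cell libraries and at 3.37, 4.76 and 4.75 in interfollicular dermis (adjusted p = 0.0076). It was named after its values were seen, and its call was not followed under the alternatives. That call rests on zeros, which can be failed estimates, and Rpl5 has 3 near-copies at 98% identity. The count of 12 calls rests on single libraries: it was 21 without interfollicular library 6, 6 without stem cell library 4, and 4 without interfollicular library 1, interfollicular library 2 or stem cell library 1. Without any 1 of the last 4 libraries named, the calls of Rpl13 (adjusted p = 0.052 to 0.19) and Rpl32 (0.0736 to 0.119) are lost. The Rpl14 call is lost without stem cell library 4 (0.0582) or interfollicular library 2 (0.0737). That of Rpl15 is lost without stem cell library 1 (0.103) or 2 (0.0957), interfollicular library 1 (0.131) or 2 (0.0625), with no filter (0.0657) and with median-of-ratios scaling (0.0691). No filter also ends the calls of Rps24 (0.0601), Rpl13 (0.108) and Rpl32 (0.0765). Rpl13 is lost as well with median-of-ratios scaling (0.0661), a pseudocount of 0.1 (0.0603) or no variance trend (0.0505).

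Papilla was compared with sheath and with interfollicular dermis. Against sheath, 18 of 62 members (29.0%) were lower in papilla, under the 33.4% of all rows, and 43 did not pass, and 1, Rpl39l, was higher (3.45, SE 0.31, adjusted p = 5.49e-06), beside 16.4%. The median was -0.64 for members and -0.36 for all rows. Against interfollicular dermis 24 (38.7%) were lower, beside 28.6%, and Rpl39l was again the 1 member higher (SE 0.31, adjusted p = 2.04e-05), beside 13.7%. The median was -0.97 for members and -0.32 for all rows. In papilla Rps24 was at 9.22, 10.95 and 4.10 FPKM, below every sheath library (21.8, 24.7 and 33.7) and every interfollicular library. Its log2 fold change was -1.68 (SE 0.37, adjusted p = 0.00255) against sheath and -1.84 (SE 0.37, adjusted p = 0.00193) against interfollicular dermis. Rplp0 was at 16.3, 17.0 and 10.7 in papilla, with -1.44 against sheath (adjusted p = 0.00324) and -0.99 against interfollicular dermis (adjusted p = 0.0284). Rps27l fell by 1.71 and 1.41, Rpl4 by 1.24 and 1.07 and Rps3 by 1.11 and 1.11 in papilla against sheath and interfollicular dermis. Of the most abundant members, Rpl8 had -1.08 (adjusted p = 0.011) and -1.15 (adjusted p = 0.0098). Median-of-ratios scaling ends both Rpl8 calls (adjusted p = 0.106 and 0.0613) and, against interfollicular dermis, those of Rpl4 (0.0528) and Rplp0 (0.133). It leaves 8 members lower in each comparison. With no filter both Rpl8 calls are lost (0.114 and 0.104). Papilla library 4 held the lowest value of the 12 for 36 of the 62 members and had the lowest estimate of relative depth. The Rplp0 call against interfollicular dermis is lost without it (0.0935), with quantile normalization (0.064), with no filter (0.0605) and without interfollicular library 1 (0.118) or 2 (0.0534). The Rpl8 call against sheath is lost without sheath library 5 (0.052). Without papilla library 4 14 members were called in each comparison, 12 of them lower, and without sheath library 5 there were 10 against sheath. Against interfollicular dermis there were 36 without interfollicular library 6, 13 without interfollicular library 1 and 11 without interfollicular library 2. Rpl30 had a log2 fold change of -3.03 (SE 0.77, adjusted p = 0.00757) in papilla against interfollicular dermis.

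**Figure D5:**
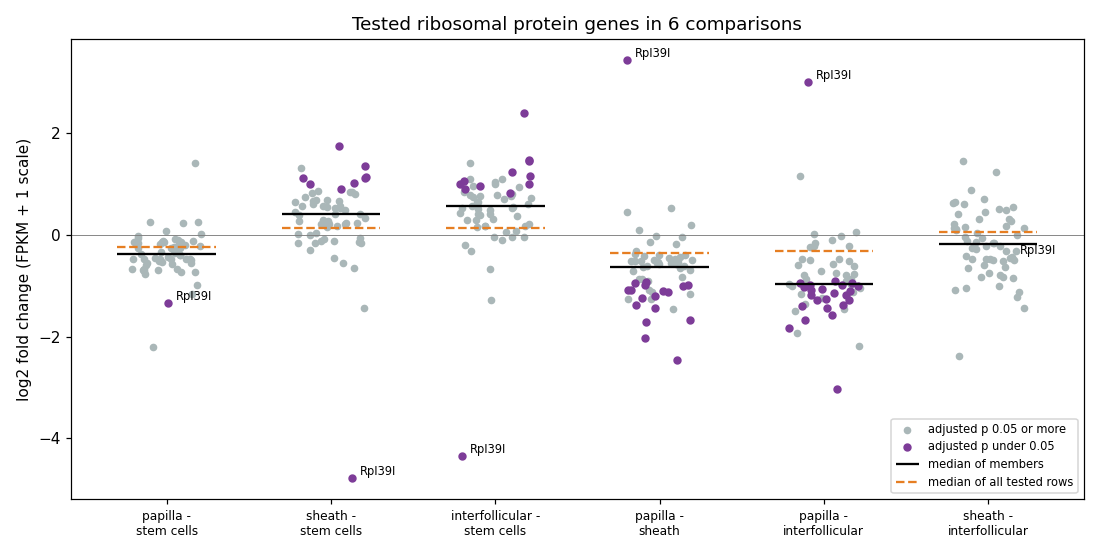
Log2 fold change on the FPKM + 1 scale of the tested ribosomal protein genes reported here in 6 comparisons; purple points have an adjusted p under 0.05, the black line is the median of all 62 tested and the dashed orange line the median of all 12774 rows. Rpl39l stands apart from the others in 4 comparisons, from -4.79 to 3.45.

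Between papilla and stem cells a single member, Rpl39l, passed as lower, beside 6.38% of all rows, and none passed as higher, beside 2.31%. The median log2 fold change was -0.38, against -0.25 over all rows, and 4 members had an unadjusted p under 0.05 by limma. With the library number as a block in these 6 libraries a second passed, Rpl30 (-2.20, SE 0.38, adjusted p = 0.043). Without sheath library 4, which is in neither group but enters the filter on low values and the shared spread, 2 passed as well. Between sheath and interfollicular dermis no member passed, beside 0.939% of rows higher and 1.32% lower, and 7 had an unadjusted p under 0.05 by limma. The median difference there was -0.19, against 0.05 over all rows.

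Genes free of near-copies were counted apart, a choice made after seeing the data. Of 12 tested, 10 were lower in papilla than in interfollicular dermis, beside 28.6% of all rows, and 5 (41.7%) were lower than in sheath, beside 33.4%. Against stem cells 5 were higher in interfollicular dermis, beside 19.7%, and 3 (25%) in sheath, near the 24.3% of all rows. Rpl39l was called in the opposite direction in each of these 4. These counts were not repeated under the alternatives, and the share over all rows is not matched for level. Against interfollicular dermis, median-of-ratios scaling ended the papilla calls of Rpl4 (adjusted p = 0.0528, limma), Rpl32 (0.058) and Rpl22 (0.155). Those of Rpl32 and Rpl22 were also lost without papilla library 4, interfollicular library 1 or interfollicular library 2. The calls of Rps3 and Rps27l passed under every alternative.

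Some members varied more within a population than between them. Rps19, mutated in Diamond-Blackfan anaemia, was at 3.08, 59.4 and 5.21 FPKM in stem cells, 3.09, 40.5 and 0.813 in papilla, 13.2, 5.70 and 65.0 in sheath and 72.1, 12.3 and 29.3 in interfollicular dermis. Library 2 was the high one in both stem cells and papilla, and none of its comparisons passed. Its SD of log2(FPKM + 1) over the 12 libraries was 1.82, second to Rpl39l with 2.12, against a median of 0.66 over tested members. Rps18 was at 0.175 in sheath library 1 and 0.0917 in interfollicular library 6 and at 3.13 to 14.9 elsewhere. Rps2 was at 37.0 in sheath library 5 and at 2.63 to 10.9 in the other libraries. 

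Related genes of the translation apparatus were taken from lists, and no list was tested against the members. Of 30 tested nucleolar factors that build ribosomes, 26 were higher and 1, Sbds, was lower in sheath than in stem cells, and 25 were higher in interfollicular dermis. In papilla 27 of 30 were lower than in sheath and 25 lower than in interfollicular dermis. Their median log2 fold change against stem cells was 1.39 in sheath and 1.18 in interfollicular dermis. Ncl, nucleolin, was at 18.6, 25.1 and 24.1 FPKM in stem cells, 19.4, 26.9 and 21.9 in papilla, 76.8, 106.8 and 112.4 in sheath and 81.0, 69.9 and 52.0 in interfollicular dermis. Dkc1, the pseudouridine synthase of ribosomal RNA, had 2.98 in sheath and 2.54 in interfollicular dermis against stem cells. Of 14 translation factors with oligopyrimidine tracts, 8 were higher in sheath and 6 in interfollicular dermis than in stem cells, and in papilla 12 were lower than in sheath and 9 than in interfollicular dermis. Of 7 ribosomal proteins whose symbols fall outside the rule, 3 were higher in sheath and 1 in interfollicular dermis than in stem cells, and in papilla 5 were lower than in sheath and 3 than in interfollicular dermis. Of 74 tested mitochondrial ribosomal proteins the counts were 23, 18, 45 and 41 in the same order, with none called the other way. Of 16 regulators, 7 were higher in sheath than in stem cells and none lower, and in interfollicular dermis 6 were higher and 1 lower. Among them, Mycn (2.95 and 2.69) and Mtor (1.36 and 1.12) were higher in sheath and interfollicular dermis than in stem cells. Myc had -0.14 and 0.15, neither past the threshold. These shares stand against the same backgrounds as the members' counts. Cell cycle genes were also higher in sheath and interfollicular dermis. Summed over 10 such genes, FPKM was 30.6 to 83.5 in stem cells and 19.1 to 40.6 in papilla. It was 454.6 to 578.2 in sheath and 278.4 to 341.3 in interfollicular dermis. Between these last populations the mean sum was higher in sheath (525 against 318), whereas the members' mean share was 1.69% in sheath and 1.88% in interfollicular dermis. The summed FPKM of 8 keratinocyte markers was 548 to 1003 in stem cells, 1031 to 3141 in papilla, 833 to 1001 in sheath and 916 to 1363 in interfollicular dermis. The part of proliferation, of the fall in mesenchyme markers or of other cell types in the ribosomal protein values was not tested.

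A pyrimidine-rich sequence was frequent at the starts of these genes. In RefSeq promoter windows (GRCm38.p6), CTTTC was searched from 30 bases before to 30 after the annotated start. It was present for 21 of 59 members with an entry (35.6%), for 9.18% of 27025 genes and for 8.82% of 68 mitochondrial ribosomal protein genes. The reverse complement GAAAG was present for 10.2% of members and 8.58% of all genes. The windows of the contrasted paralogs and of Rpl4 are shown from 40 bases before the start to 20 after, with CTTTC in capitals.
Rpl39l (chr16:10170188-10170247, plus strand): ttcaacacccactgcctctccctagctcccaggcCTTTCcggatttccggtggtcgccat
Rpl39 (chrX:37085203-37085262, minus strand): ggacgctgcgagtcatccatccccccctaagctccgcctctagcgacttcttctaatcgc
Rps27l (chr9:66946046-66946105, plus strand): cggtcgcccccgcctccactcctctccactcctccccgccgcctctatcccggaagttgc
Rps27 (chr3:90213629-90213688, minus strand): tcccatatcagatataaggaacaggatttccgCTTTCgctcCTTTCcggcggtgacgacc
Rpl4 (chr9:64173347-64173406, plus strand): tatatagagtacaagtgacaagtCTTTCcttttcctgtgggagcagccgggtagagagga
The motif was present in the window of Rpl39l, which was high in stem cells, and of Rpl4, which was high in sheath, and absent from that of Rps27l. A match is a description of letters only.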

How the data were processed

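Per the labels' protocols, polyadenylated RNA of sorted cells was selected with oligo(dT) and made into SOLiD libraries. The authors deposited 1 table of FPKM values per gene and library. The submitters' processing notes name TopHat2 2.0.13, SAMtools, Cufflinks 2.2.1 and mm10, without roles, and the annotation is not given in the sources used here. Depth is unknown, so no counting interval is given. Rows that reached 1 FPKM in 3 or more libraries (12774) entered limma 3.58.1 (R 4.3.3) as log2(FPKM + 1): 4 group means in 1 fit, empirical Bayes with a mean-variance trend, two-sided, Benjamini-Hochberg adjustment within each comparison, threshold 0.05. The fit was tested on simulated data. Standard errors (SE) are those of the moderated fit. Whether replicates are separate animals is not stated in the labels. The p-values therefore cover the spread among these libraries, which may be technical. The first sheath library carries a different title prefix from the other sheath libraries.

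Papilla and stem cell libraries share the numbers 1, 2 and 4. Deviations from the group means correlated at 0.306, 0.241 and 0.389 for the same number and at most at 0.125 for others. The numbers were therefore taken, from the data, to pair these libraries. The p-values given are from the fit without this pairing, except where a block is named. Sheath and interfollicular dermis share some numbers with these groups and with each other, and a pairing there was not examined. Near-copies came from blastn 2.17.0 on GENCODE coding sequences, and the promoter windows from RefSeq. The members, the gene lists and the rule for named genes were chosen with earlier results of these data known. That rule names the highest and lowest members by mean FPKM, up to 4 called members per comparison and direction, members at 0 in one library and at 10 FPKM or more in another, the stalk genes, paralog pairs, and the least and most variable members. Alternatives were another pseudocount, no filter, 2 other scalings, zeros as missing, no variance trend, the replicate block, leaving out each library, and, for the share of summed FPKM, other sums. The values of 1 member are not reported here, though counts and sums over the members include it.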

Additional observations from a re-analysis of the deposited data

How the results depend on the processing

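Medians kept their direction under every alternative run, except sheath minus interfollicular dermis, which was 0.027 with no filter on low values, and no called comparison of a named member changed sign in 883 values. Of the 185 named-member comparisons that were not called, 66 changed sign at least once, in 149 values. Of 49 called comparisons of named members, 20 passed under every alternative and 29 lost the call under at least 1, most often under median-of-ratios scaling (21) and with no filter (20). Numbers of members called depended on the setting. Papilla against stem cells had 0 with a pseudocount of 0.1 or quantile normalization, 0 to 2 without 1 library, and 2 with the replicate block, which was run for this comparison only. Sheath against stem cells had 14 with quantile normalization and 6 to 12 without 1 library. Interfollicular dermis against stem cells had 5 with no filter, 7 with median-of-ratios scaling and 4 to 21 without 1 library. Papilla against sheath had 9 with median-of-ratios scaling and 10 to 23 without 1 library. Papilla against interfollicular dermis had 12 with no filter, 9 with median-of-ratios scaling and 11 to 36 without 1 library, and sheath against interfollicular dermis 0 to 1. The F test called 10 with no filter or median-of-ratios scaling and 13 to 30 without 1 library. The cause of these moves was not tested. The members' share of summed FPKM in stem cells was 1.03% without the 10 most abundant rows in the denominator; other shares moved by less than 1 SD. With 3 libraries a group, unknown depth and near-copies for 65 genes, a call that is missed does not show that levels are alike.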
